A study of Homo sapiens with 3 samples.

Results

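SMAD2/3 sites listed both early and late in TGFβ stimulation are described here where, among such shared sites, they ranked higher at the early time. Peaks of the 16 h and the 1.5 h list were paired where they shared at least 1 bp and each was the other's largest overlap, which gave 494 pairs. The authors' MACS score was then ranked among the pairs within each list, with rank 1 for the lowest score and 494 for the highest. The sites were selected on these measured scores: a pair was kept where its rank was higher at 1.5 h than at 16 h. This held for 241 of the 494 pairs (48.8%), while 252 pairs ranked higher at 16 h and 1 pair had the same rank at both times. That share and the order of the ranks follow from the selection, so scores and ranks are given as a description, without a test.

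The cells were MCF10A MII, a human breast epithelial line transformed with H-Ras, grown with epidermal growth factor, insulin, hydrocortisone and cholera toxin. Recombinant TGFβ3 was given at 5 ng/ml, and chromatin was precipitated with an antibody to SMAD2/3 after 16 h in 1 library and after 1.5 h in 1 library. Both libraries therefore share the cell line, the transformation, the ligand and the dose, and differ in the time after TGFβ3. An input DNA library of untreated cells completes the series and was not used here.

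TGFβ acts through a pair of receptor kinase types at the cell surface, which phosphorylate SMAD2 and SMAD3. The phosphorylated proteins join SMAD4, accumulate in the nucleus and bind DNA together with other transcription factors, so that the sites they occupy differ between cell types. Signalling is limited over time by inhibitory SMADs, ubiquitin ligases and corepressors that the pathway itself induces. Comparing an early with a late time asks which sites are occupied at each stage of the response.

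The lists held 3280 peaks at 16 h and 2206 peaks at 1.5 h on hg19, so the 241 sites were 7.35% of the late peaks and 10.9% of the early ones. Since each time has 1 library, values carry no replicate error, and the number of reads behind a peak is unknown. A rank shows the order of a peak among the 494 paired peaks of its own library, not among all its peaks. Ranked among all peaks of each list, 186 of the 241 sites stayed higher at 1.5 h. A lower rank at 16 h does not by itself mean less SMAD2/3 at that site. All positions below are 1-based on hg19, and a site's position spans both of its peaks. Peaks, scores and ranks of the 16 h list are called late and those of the 1.5 h list early.

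The sites were mostly strong early peaks that stood lower in the late order of the pairs, with a median late rank of 161 and a median early rank of 323. Their 16 h scores ran from 50.2 to 722 with a median of 75.1 (quartiles 58.2 and 106). Their 1.5 h scores ran from 55.7 to 1839 with a median of 133.5 (quartiles 90.6 and 247). At both times these medians lay above those of the whole lists, which were 56.2 at 16 h and 64.9 at 1.5 h. The same held for all pairs, with medians of 95.05 at 16 h and 99.15 at 1.5 h. At 16 h, 68 of the 241 sites scored between 50 and 60, next to the lowest score listed, and 65 scored 100 or more. At 1.5 h, 10 sites scored between 50 and 60 and 168 scored 100 or more. The pairs ranking higher at 16 h had a median late score of 133.5 and a median early score of 74.1. Ranks among the same pairs must give such a mirror image.

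Sites of every strength occurred in the set. The 494 pairs were ordered by the mean of both ranks and cut into 4 classes of near equal size. Of the 124 weakest pairs 58 ranked higher at 1.5 h, as did 65 of 123 and 58 of 123 in the middle classes and 60 of the 124 strongest. The size of the rank difference in either direction was smallest among the strongest pairs, with a median of 55.8 places, and largest in the second weakest class, with 174 places. Pairs at the top of a ranking have less room to differ, so this too is a description.

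Over the 241 sites the rank at 16 h was between 2 and 426 places lower than at 1.5 h, with a median of 110 places (quartiles 49.5 and 192). The difference was 100 places or more at 127 sites, 200 or more at 56, 300 or more at 11 and 400 or more at 3. In the pairs ranking higher at 16 h, differences of these sizes the other way numbered 130, 58, 15 and 2. A difference under 10 places was found at 9 of the 241 sites, against 23 of the pairs ranking higher at 16 h. A difference of at least 1 in 10 of the pairs, or 49.4 places, was reached by 181 of the 494 pairs in the direction of the early time (36.6%), and by 182 in the other direction.

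**Figure D1:**
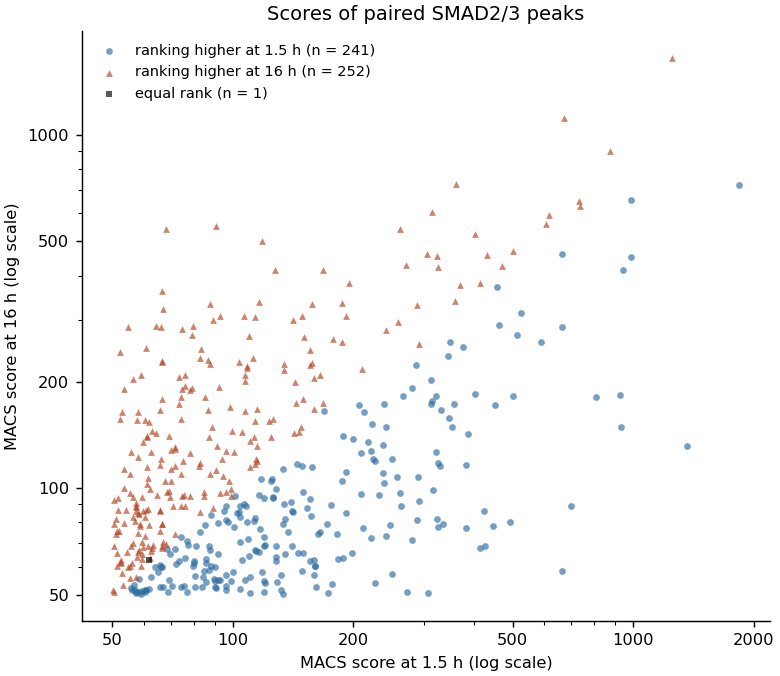
Authors' MACS score of each of the 494 paired SMAD2/3 peaks at 1.5 h (horizontal axis) and 16 h (vertical axis), both on log scales, with 1 point a pair. The 241 pairs ranking higher at 1.5 h (circles) lie to the lower right and reach 1839 at 1.5 h, and those with 16 h scores just above 50 spread over 1.5 h scores from below 60 to above 300.

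The plot of scores at both times shows how unequal the late scores of the set's strong early sites were. Of the 80 sites scoring 200 or more at 1.5 h, 16 also scored 200 or more at 16 h, 37 scored 100 to 200, 11 scored 80 to 100, 11 scored 60 to 80 and 5 scored 50 to 60. Of the 88 sites scoring 100 to 200 at 1.5 h, 12 stayed in that class at 16 h, and 18 were in the class of 50 to 60. Strong early sites of the set thus had late scores in every class, and the selection favours low late scores. Outside the set, 26 pairs ranking higher at 16 h scored 200 or more at 1.5 h. All 26 also scored 200 or more at 16 h. A pair ranking higher at 16 h with a high early rank must have a late rank higher still. The count therefore follows largely from the selection.

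The boundary of the set runs through strong and weak sites alike. Just inside it were a site on chromosome 3 at 72387562 to 72388898, with a late rank of 489 and an early rank of 491, and another on that chromosome at 48632790 to 48633546, with a late rank of 477 and an early rank of 480. A site on chromosome 11 at 129013172 to 129013692 followed, with a late rank of 463 and an early rank of 467, and the chromosome 20 site at 56592228 to 56593581 was as close, with a late rank of 490 and an early rank of 494. Just outside lay a chromosome 17 site at 1014529 to 1014782, with rank 95 at both times, and a chromosome 4 site at 169408567 to 169408805, with a late rank of 125 and an early rank of 124. The strongest late peak of all, on chromosome 9 at 136738785 to 136740038, was also outside, with a late rank of 494 and an early rank of 492. Sites on chromosomes 1 and 22 lay 2 places outside as well. These neighbours differ by a few places only, so the boundary parts sites whose order was nearly the same at both times.

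The 10 sites with the highest early scores divide into 5 that were also near the top of the late order and 5 that were not. The strongest early peak of the series, the same chromosome 20 site, had a late score of 722 and an early score of 1839, and its rank was 4 places lower at 16 h. The 2 chromosome 3 sites beside the boundary belong to the same group, with late scores of 654 and 460 and early scores of 989 and 665. A chromosome 2 site at 238341109 to 238342153 ranked 17 places lower at 16 h, and a chromosome 5 site at 143569336 to 143570019 ranked 21 places lower. These 5 sites were strong SMAD2/3 peaks at both times, and their place in the set rests on small rank differences.

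At the other 5 the difference was 98 places or more. A chromosome 8 site at 128680119 to 128681625 had a late score of 131 (rank 324) and an early score of 1363 (rank 493). A chromosome 2 site at 228682790 to 228683859 had a late score of 149 (rank 348) and an early score of 931 (rank 488). A chromosome 11 site at 128077634 to 128078693 had a late score of 89.3 (rank 229) and an early score of 699 (rank 482). All 3 were among the strongest early peaks, and none was among the 100 highest late ranks. Smaller but similar differences were found on chromosome 5 at 135342224 to 135343308 (98 places) and on chromosome 14 at 75086127 to 75087037 (101 places).

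The late peak was much the narrower one at these 5 sites. At the chromosome 8 site the paired late peak was 604 bp wide and the early peak 1507 bp, and a second late peak of 269 bp also lay inside the early one. At the chromosome 2 site at 228682790 the late peak measured 364 bp and the early peak 1070 bp. Late widths of 375 and 315 bp stood against early widths of 1060 and 911 bp at the chromosome 11 and chromosome 14 sites. At all 4 the paired late peak lay wholly inside the early one and covered between 34.0% and 40.1% of it. At the chromosome 5 site at 143569336, one of the 5 near the top at both times, the late width was 645 bp and the early width 684 bp, and the middles of the peaks were 4.5 bp apart. On chromosome 2 at 228682790 and on chromosome 11 the late peak ended before the middle of the early one, so the interval still called at 16 h was 1 flank of the early interval.

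**Figure D2:**
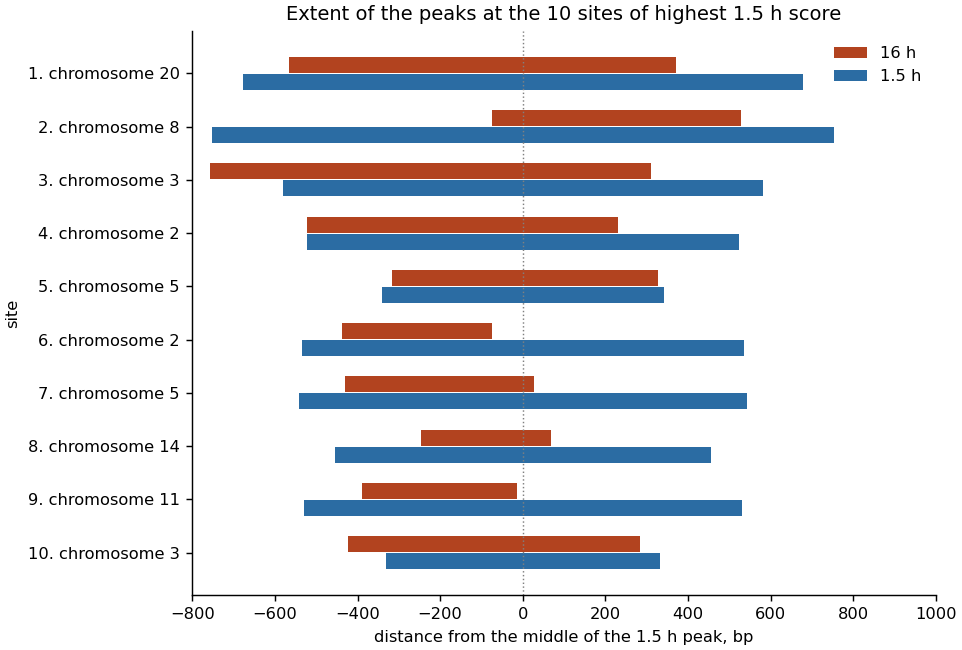
Extent of the 16 h peak (upper bar) and the 1.5 h peak (lower bar) at the 10 sites of highest 1.5 h score, in bp from the middle of the 1.5 h peak. Early peaks were 665 to 1507 bp wide and paired late peaks 315 to 1067 bp. At sites 2, 6, 7, 8 and 9 the paired late peak covers 34.0% to 42.3% of the early one. Only paired peaks are drawn, and site 2 has a second late peak of 269 bp.

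The 10 largest rank differences belonged to sites with early ranks of 364 to 478, whose paired late peak lay close to the lowest score listed. No site was in both groups of 10. Among the 10 largest differences, 16 h scores ran from 50.4 to 68.8 and 1.5 h scores from 161 to 664. First was a chromosome 12 site at 104982257 to 104982611, with a late score of 50.5 (rank 4) and an early score of 306 (rank 430). Second was a chromosome 1 site at 62787071 to 62787467, with a late score of 50.9 (rank 10.5) and an early score of 273 (rank 420). The late score was under 60 at 8 of the 10, and the other 2, on chromosome 2 at 43358399 to 43358770 and on chromosome 9 at 124711668 to 124712520, had late scores of 67.7 and 68.8.

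The third of them had the strongest early peak of these 10. It lay on chromosome 13 at 31317373 to 31317929, with a late score of 58.3 (rank 69) and an early score of 664 (rank 478). Another site of this kind lay on the same chromosome at 31403281 to 31403816, with a late score of 78.1, an early score of 445 and a rank 293 places lower at 16 h. It was picked out after its values were seen. The remaining sites were on chromosome 16 at 55533864 to 55534266 (369 places lower at 16 h), chromosome 4 at 143395543 to 143395909 (359 places), chromosome 6 at 111790870 to 111791081 (335 places), and chromosome 1 at 153538013 to 153538442 (349 places) and 218669987 to 218670241 (334.5 places). At 2 of the 10 the early peak also overlapped a second late peak that scored more than the paired one. On chromosome 4 this second late peak scored 89.1, against 54.0 for the paired peak, and on chromosome 6 it scored 65.5, against 53.6. Ranked by the highest overlapping score of each list, a choice made after the data were seen, the difference came to 178.5 places on chromosome 4 and 265 places on chromosome 6, so the paired score gives a larger difference there. In all 10 the paired late peak was the narrower one, 98 to 233 bp wide at 16 h and 202 to 853 bp at 1.5 h. In 5 of the 10 the late peak lay wholly inside the early one, and in 3 of the 10 it held the early middle, against 8 of the 10 sites of highest early score. The choice of these sites favours low late scores, and width moved with score in both lists. Their narrow late peaks therefore follow in part from the choice.

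**Figure D3:**
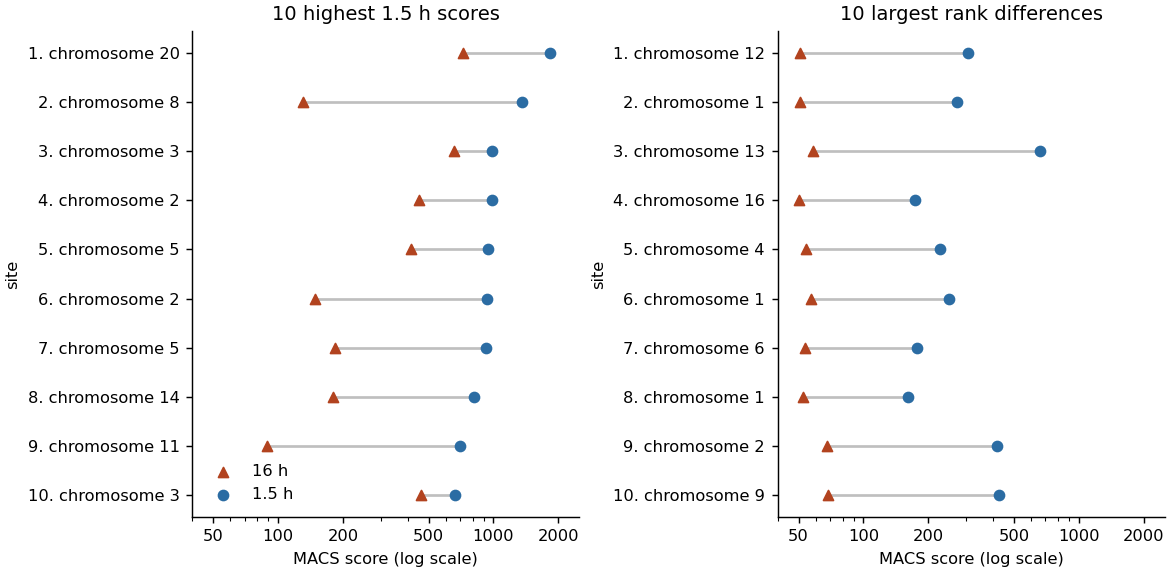
Authors' MACS scores at 16 h (triangles) and 1.5 h (circles), on a log scale, at the 10 sites of highest 1.5 h score (left) and the 10 sites with the largest rank difference (right). On the left the late scores spread between 89.3 and 722, and on the right all paired late scores lie between 50.4 and 68.8; sites 5 and 7 there have a second late peak of higher score, which is not drawn.

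Late peaks over these sites were mostly narrower than the early peaks and often nested in them, and the pairs ranking higher at 16 h showed the reverse. Over the 241 sites the median width was 174 bp at 16 h (95% interval of the median 160 to 183) and 259 bp at 1.5 h (235 to 306), while the pairs ranking higher at 16 h had medians of 287 bp at 16 h and 172.5 bp at 1.5 h. The 1.5 h peak was the wider one at 195 sites (80.9%, 95% exact Clopper-Pearson interval 75.4 to 85.7%). Among the pairs ranking higher at 16 h it was the wider one in 38 of 252 (15.1%, 10.9 to 20.1%), and among all pairs in 233 of 494 (47.2%). The late peak lay wholly within the early one at 84 of the 241 sites (34.9%, 28.9 to 41.2%), against 15 of 252 (5.95%, 3.37 to 9.63%) of the pairs ranking higher at 16 h and 99 of all 494 pairs (20.0%). In the opposite nesting, the early peak lay wholly within the late one at 8 of the 241 sites (3.32%), against 107 of the 252 pairs ranking higher at 16 h (42.5%, 36.3 to 48.8%). Nesting was therefore found in both sets, and where peaks were nested the one of lower rank was mostly inside. Neither peak lay within the other at 149 of the 241 sites (61.8%) and at 134 of the 252 other pairs (53.2%). These intervals cover counting error only, and sites of 1 library are not replicates.

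**Figure D4:**
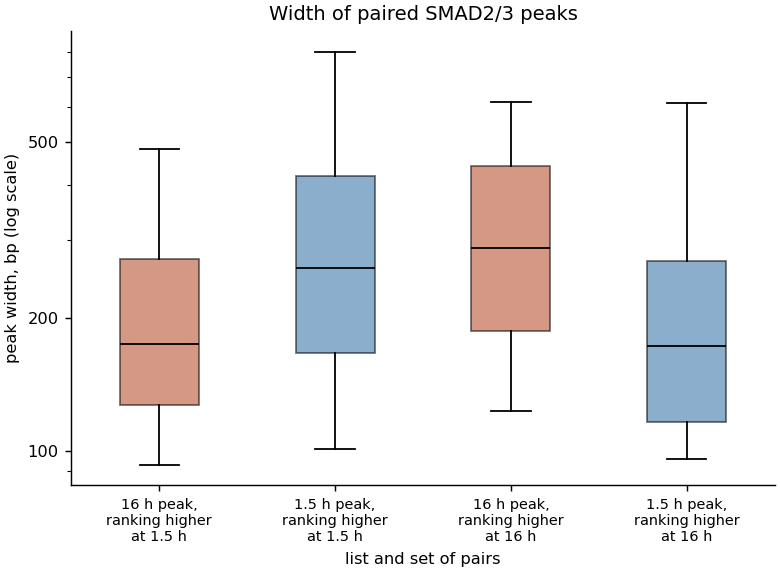
Width of the 16 h and 1.5 h peaks, on a log scale, for the 241 pairs ranking higher at 1.5 h (left) and the 252 pairs ranking higher at 16 h (right). Boxes give median and quartiles and whiskers the 5th and 95th percentiles over pairs; the left pair of boxes has medians of 174 bp at 16 h and 259 bp at 1.5 h.

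The length of the shared part was similar in both sets of pairs. The overlap had a median of 143 bp at the 241 sites and 148.5 bp at the pairs ranking higher at 16 h. It made up a median of 86.2% of the late peak and 57.6% of the early peak at the 241 sites, against 53.8% of the late peak and 94.7% of the early peak at the pairs ranking higher at 16 h. The middles of the peaks lay a median of 58.5 bp apart (quartiles 31.0 and 98.0), against 60.2 bp in the pairs ranking higher at 16 h. The middle of the late peak fell within the early peak at 210 of the 241 sites (87.1%), against 178 of the 252 pairs ranking higher at 16 h (70.6%) and 78.7% of all pairs. The middle of the early peak fell within the late peak at 72.2% of the 241 sites and at 86.1% of the pairs ranking higher at 16 h. At 6 of the 241 sites the overlap was shorter than 20 bp. In all, the 241 sites covered 53.3 kb at 16 h and 80.5 kb at 1.5 h, and 44.7 kb at both times.

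Width moved with score in both lists, and the rule was based on score. When peaks of like score were compared, the intervals of the 241 sites and of the pairs ranking higher at 16 h overlapped in each of the 5 score classes of either list. At 16 h scores of 100 to 200 the median late width was 313 bp (279 to 344) at 49 of the sites and 290 bp (263 to 308) at 82 pairs ranking higher at 16 h. At 1.5 h scores of 200 or more the median early width was 510 bp (473 to 566) at 80 of the sites and 584 bp (469 to 640) at 26 pairs ranking higher at 16 h. How far the difference in width is more than the difference in score was not tested.

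Against peaks listed at a single time, the weakest late peaks of the set were wide for their score. At 16 h scores of 50 to 60, the median width was 127 bp (111 to 140) at 68 of the sites and 102 bp (101 to 103) at 1904 peaks listed at 16 h only. At 60 to 80 it was 152 bp (134 to 175) at 66 of the sites and 114 bp (112 to 118) at 569 peaks listed at 16 h only. At 80 to 100 the medians were 192 bp (174 to 234) and 183 bp (168 to 198), with intervals that overlapped. The pairs ranking higher at 16 h had a median late width of 132 bp (93 to 210) at 7 pairs scoring 50 to 60. At 42 such pairs scoring 60 to 80 it was 168 bp (147 to 184), so this width was not particular to the set. A pair needs an overlap, which a wide peak meets more readily, so the pairing itself favours wide peaks. How much of the difference comes from the pairing was not tested. In the early list the intervals overlapped at low scores: at 60 to 80 the median was 124 bp (104 to 148) at 30 of the sites and 116 bp (111 to 119) at 609 peaks listed at 1.5 h only.

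Some early peaks overlapped several late peaks. The 1.5 h peak overlapped more than 1 late peak at 39 of the 241 sites, against 11 of the 252 pairs ranking higher at 16 h. The reverse, a late peak overlapping more than 1 early peak, was found at 13 of the 241 sites, against 51 of the other 252. An early peak reaching several late peaks was thus the more frequent case among the 241 sites, at which the early peak was also mostly the wider one. The 39 sites held 41 further late peaks, which scored between 50.5 and 254 with a median of 69.3. Some of these shared only a few bp with the early peak, and some were paired with another early peak. An example of the latter is the late peak on chromosome 20 at 49982632, with a score of 233. At 15 of the 39 sites a further late peak scored more than the one paired by overlap, so that the paired score is not the highest late score there. On chromosome X at 45338810 to 45339605, for example, the paired late peak scored 86.0, a second late peak scored 131 and the early peak overlapping both scored 424. On chromosome 8 at 128680119 the further late peak scored 52.2, well below the paired 131.

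About 1 in 2 of the sites had other listed early peaks nearby, mostly within 1 kb. Another 1.5 h peak lay within 10 kb of the early peak at 128 of the 241 sites (53.1%, 46.6 to 59.5%), and another 16 h peak within 10 kb of the late peak at 107 (44.4%, 38.0 to 50.9%). Over all listed peaks the shares were 20.5% for late peaks with another late peak and 41.8% for early peaks with another early peak. The pairs ranking higher at 16 h had shares of 39.7% for late and 52.8% for early peaks, so nearby peaks were about as common there. After peaks of 1 list under 500 bp apart were merged, the share with another early peak within 10 kb came to 19.0% of 226 sites, and to 16.6% of the pairs ranking higher at 16 h. Much of the first share thus counts adjoining intervals that merge into 1. Most of the neighbours were close: within 1 kb the share of the 241 sites was 36.5% for late and 45.6% for early peaks. No other peak of either list lay within 10 kb at 85 of the 241 sites and at 90 of the other 252.

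Joining all peaks of the 2 lists that were separated by no more than 10 kb gave runs, which show how the sites were grouped. The 241 sites fell into 223 runs, of which 206 held 1 site, 16 held 2 and 1 held 3. Among the 51 runs with 2 or more pairs, 14 held pairs ranking higher at 1.5 h alone, 12 held pairs ranking higher at 16 h alone and 25 held both kinds. Runs with the 241 sites and no pair of the other kind numbered 198 and held 293 late and 353 early peaks. Runs of the other kind alone numbered 210 and held 302 late and 338 early peaks. Neighbouring pairs thus differed in direction in 25 of the 51 runs with 2 or more pairs, beside a share of 48.8% of all pairs ranking higher at 1.5 h. Whether directions within a run are related was not tested. Early peaks outnumbered late peaks in both kinds of run.

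The only run with 3 of the sites was on chromosome 18 at 26734246 to 26735541. Its late peaks scored 79.0, 158 and 63.3 in order of position, and the early peaks paired with them scored 172, 347 and 188. The strongest peak was the middle one at both times, and 1 more early peak at the end of the run, with a score of 103, had no late partner. A run on chromosome 13 at 110998968 to 111000686 held 2 of the sites, with late scores of 76.6 and 184 and early scores of 117 and 403. Between them lay 3 early peaks scoring 80.8 to 109 that had no late partner. On chromosome 1 at 153538013 to 153540579, the first site had a late score of 57.3 and an early score of 250, and the next had a late score of 312 and an early score of 525. Weak and strong late peaks thus stood side by side, with early peaks at both.

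On chromosome 5 at 159329561 to 159340339, 2 of the sites had late scores of 78.6 and 260 and early scores of 247 and 348. A further 4 early peaks of that run, with scores up to 153, had no late partner. The run on chromosome 10 at 74079196 to 74095118 mixed both directions. Its outer pairs had late scores of 126 and 105 and early scores of 208 and 187. The pair between them, which ranked higher at 16 h, had a late score of 132 and an early score of 91.1. The 3 late scores differed less than the 3 early scores. Another early peak of that run, with a score of 206, had no late partner.

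The sites lay on chromosomes 1 to 22 and X, in numbers that mostly followed the number of pairs. Chromosome 1 held 20 of the 241 sites among its 44 pairs, and chromosomes 2 and 8 held 16 each, among 31 and 29 pairs. The set made up 13 of 18 pairs on chromosome 3 (72.2%, 46.5 to 90.3%), 8 of 11 on chromosome 13 (72.7%, 39.0 to 94.0%) and 9 of 13 on chromosome 15 (69.2%, 38.6 to 90.9%). It made up 8 of 25 pairs on chromosome 20 (32%, 14.9 to 53.5%) and 3 of 11 on chromosome 4 (27.3%, 6.02 to 61.0%). Each of these exact binomial intervals holds the share over all chromosomes, 48.8%. The first 50 Mb of chromosome 5 held 1 of the sites (0.415%, 0.0105 to 2.29%) and 6 of the pairs ranking higher at 16 h (2.38%, 0.879 to 5.11%). These intervals overlap, and the share over all pairs was 1.42%.

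**Figure D5:**
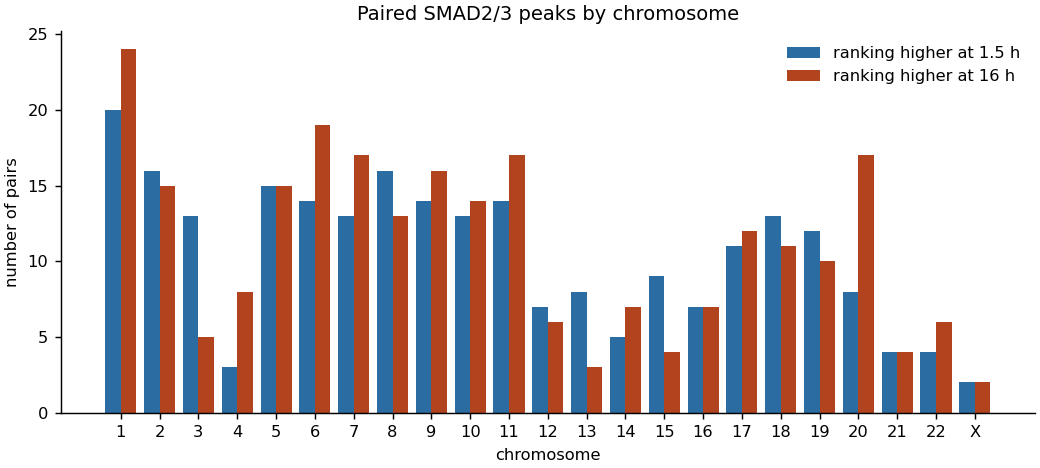
Number of paired SMAD2/3 peaks on each chromosome, for the pairs ranking higher at 1.5 h (left bars) and at 16 h (right bars). Chromosome 3 has 13 pairs ranking higher at 1.5 h and 5 ranking higher at 16 h, and chromosome 20 has 8 and 17 of these kinds, while most chromosomes have similar numbers of both.

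Large and small rank differences occurred on the same chromosome. On chromosome 20 the 8 sites included the strongest early peak of the series, 4 places lower at 16 h, and a site at 11247877 to 11248264 with a late score of 56.9 and an early score of 159, 299 places lower at 16 h. On chromosome 3 the rank differences of the 13 sites ran from 2 places to 246 places. The largest of these belonged to a site at 170074747 to 170074998, with a late score of 81.6 and an early score of 323. Its early peak overlapped a second late peak of score 103, with which the difference came to 173 places. These sites were chosen after their values were seen.

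Genes beside the sites and the DNA sequence of the sites are not given, since no hg19 annotation or genome was used here.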

How the data were processed

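The values are the authors' deposited peak lists, 1 for each SMAD2/3 library (16 h and 1.5 h after TGFβ3), as hg19 intervals with a score for each peak. Per the submitters' processing notes, Bowtie 1.1.0, Picard and MACS 1.4.2 were used. Not given in the sources used here are the settings, any use of the input as control and the definition of the deposited score. Both lists begin at a score of 50.0. Read depth is unknown, so scores were only ordered within each list or set side by side.

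Starts were made 1-based. Pairs, ranks (ties averaged), widths, neighbours and runs were computed in Python 3.11.15 (numpy 2.4.6, pandas 2.3.3), intervals with scipy 1.17.1 and plots with matplotlib 3.10.9. Shares carry 95% exact Clopper-Pearson intervals and medians 95% binomial order-statistic intervals, which cover counting error only. No p-value was computed. The pairing and ranking code recovered every planted pair and direction in 20 of 20 made-up sets of lists.

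The sites, measures and alternatives were chosen with earlier results of these data known. Sites named are the 10 with the highest 1.5 h score, the 10 with the largest rank difference, those beside the boundary (4 inside and 5 outside, ties included) and the 5 runs with most sites. Runs tied at 2 sites were ordered by their number of early peaks. Planned motif, gene distance and pathway gene counts were not run, because no hg19 sequence or annotation was used here.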

Additional observations from a re-analysis of the deposited data

How the results depend on the processing

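An overlap of 50% of both peaks gave 145 sites among 282 pairs, with a median 16 h width of 203 bp. Ranks among all peaks of each list gave 186 sites (37.7% of the 494 pairs), all of them among the 241. The other 308 pairs, the rest of the 241 sites among them, then ranked higher at 16 h. These 186 sites had a median 1.5 h width of 306 bp and 41.9% of late peaks inside the early one. Scores of 60 or more gave 182 sites, with median widths of 208 bp at 16 h and 312 bp at 1.5 h. Merging neighbours under 500 bp apart gave 226 sites, with median widths of 236 bp at 16 h and 393 bp at 1.5 h, 45.6% nested, and 19.0% with another early peak within 10 kb, which follows from joining close peaks. Other early peaks were near 45.6% of the sites within 1 kb and 65.6% within 100 kb. Scoring each pair by the highest of all overlapping peaks, an alternative chosen after seeing the data, gave 243 sites. In all, 20 values of the alternatives, those of this score and of a rank margin among them, lay within the interval of the reported value or within 1.5 times the reported number. Keeping to chromosomes 1 to 22 and X could change nothing, since every pair lies there. The early peak was wider at 76.1% to 88.7% of the sites in these settings. No paired analysis was possible because there is a single library per time point, which also means that leaving out a replicate could not be tried.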
